A study of Homo sapiens with 6 samples.

Results

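Krüppel-like factors (KLFs) are zinc finger transcription factors that bind GC-rich and CACCC-type sequences in promoters, and they were followed here in EndoC-βH1 cells during acute treatment with the checkpoint kinase inhibitor AZD7762. The 10 members described, KLF2, KLF3, KLF4, KLF5, KLF6, KLF9, KLF10, KLF11, KLF13 and KLF16, are 10 of 18 KLF genes and 10 of 60671 gene identifiers in the count data. They were chosen by their measured expression in DMSO and AZD7762 libraries, so their differences between the treatments are given as a description and carry no test. RNA was sequenced from 6 samples, 3 exposed to the vehicle DMSO and 3 to 1 µM AZD7762, a competitive dual inhibitor of CHEK1 and CHEK2. Kinase profiling in the study at this dose found further kinases inhibited, and its authors allow for a contribution of targets other than CHEK2. EndoC-βH1 is 1 immortalised human β cell line, labelled wild type in both groups, and all cells went through 1 h of starvation at 0.5 mM glucose and 1 h of stimulation with the compound or vehicle present throughout. Which glucose concentration each library received during stimulation is not stated, and the labels do not say whether the samples of a group came from separate cultures, so p-values measure only the spread between these samples, which may be technical.

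KLF proteins share a nearly uniform block of zinc fingers at the carboxyl terminus and differ in the amino-terminal part, which recruits partner proteins. KLF3, KLF8 and KLF12 recruit the corepressor CtBP, KLF1, KLF2, KLF4, KLF5, KLF6 and KLF7 bind histone acetyltransferases, and KLF9, KLF10, KLF11, KLF13, KLF14 and KLF16 bind the SIN3A corepressor. Several members are rapidly induced or repressed by growth factors, hormones and stress, and KLF11 variants have been linked to a monogenic form of diabetes.

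The libraries held between 20486391 and 29402440 counts on genes. The limit used for detection, 3 counts, equalled between 0.102 and 0.146 CPM (counts per 1000000 counts) of the whole library total, without scaling. All other CPM use the total over the genes that passed the filter on low counts, after TMM scaling in edgeR. Mitochondrial genes held 1.57, 2.13 and 2.12% of the counts in the DMSO libraries and 2.26, 2.28 and 2.63% in the AZD7762 libraries, and the 20 most abundant genes held 4.91 to 5.09% and 5.41 to 5.53%. Neither share overlapped between the groups, and their part in the results was not tested. The 10 β cell markers examined were all detected, at a summed 3130 to 3920 CPM with DMSO and 3630 to 3990 CPM with AZD7762. Of 11 markers of other cells found in the count data, 3 (PRSS1, AMY2A and CDH5) were at 0 in every library. SST was expressed in both groups, at means of 215 CPM with DMSO and 254 CPM with AZD7762. KRT19, CPA1 and COL1A1 were also expressed, at means of 26.1, 21.8 and 12.1 CPM with DMSO and 27.1, 25.7 and 12.5 CPM with AZD7762. GCG, PPY, GHRL and PTPRC had lower means. The summed level of these markers was 259 to 287 CPM with DMSO and 310 to 336 CPM with AZD7762. The part of this difference in the results was not tested. In bulk RNA, fewer expressing cells and less RNA per cell cannot be told apart.

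KLF4 and KLF6 moved in opposite directions, and the promoters of both are shown because these genes carry the contrast, with 1 of the 2 windows of KLF11, an abundant member whose values overlapped between the groups. The KLF11 window shown is the one that holds the complete cAMP response element. It is the downstream window of the 2, and which of the 2 starts these cells use was not tested. The sequences are RefSeq promoter windows of GRCh38.p14, of which the 250 bases before the annotated start are printed 5′ to 3′ on the strand of the gene. Capitals mark TGACG, the core of the cAMP response element, GGGCGG, the GC box bound by KLF and SP proteins, and CACGTG, the E box, each on either strand. RefSeq windows were found for 8 of the 10 members, and KLF3 and KLF10 had no entry in the table used.
KLF4 (chr9:107489770-107490019, minus strand): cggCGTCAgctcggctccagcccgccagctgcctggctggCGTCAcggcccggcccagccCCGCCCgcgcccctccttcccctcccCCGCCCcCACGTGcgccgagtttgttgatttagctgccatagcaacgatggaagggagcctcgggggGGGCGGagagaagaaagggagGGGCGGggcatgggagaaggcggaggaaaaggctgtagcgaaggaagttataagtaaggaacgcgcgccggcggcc
KLF6 (chr10:3785210-3785459, minus strand): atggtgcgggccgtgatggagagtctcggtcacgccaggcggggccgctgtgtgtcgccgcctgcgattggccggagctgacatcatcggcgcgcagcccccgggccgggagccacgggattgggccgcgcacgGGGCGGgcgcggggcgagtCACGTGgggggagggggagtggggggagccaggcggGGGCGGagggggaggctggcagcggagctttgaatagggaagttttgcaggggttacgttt
KLF11 (chr2:10043971-10044220, plus strand): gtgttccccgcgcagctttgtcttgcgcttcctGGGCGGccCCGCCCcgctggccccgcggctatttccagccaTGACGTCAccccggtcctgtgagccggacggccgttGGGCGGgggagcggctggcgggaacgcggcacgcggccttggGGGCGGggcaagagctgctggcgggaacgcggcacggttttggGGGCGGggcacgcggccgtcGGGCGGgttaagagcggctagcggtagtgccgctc

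In these windows, searched over 250 bases before and 50 after the start, KLF4 held the TGACG core at 2 positions, -247 and -210 from the start, whereas KLF6 held none. The core was also present in members whose libraries overlapped between the treatments, at 2 positions in KLF16 (-94 and -84), at 1 in KLF13 (-56) and at 1 in the second of the KLF5 windows (-14). It occurs in 24.6% of all 35116 promoter windows of the same length. The window printed for KLF11 held the complete palindrome TGACGTCA, which occurs in 1.85% of windows, at -176, and this palindrome contains the TGACG core on both strands. The other KLF11 window held neither the palindrome nor the core, and it had 2 GC boxes and 1 E box, at -182. GC boxes numbered 4 for KLF4, 2 for KLF6 and 7 for the printed KLF11 window, against a match in 45.0% of all windows. CACCC boxes numbered 0 for KLF4, 0 for KLF6 and 1 for the printed KLF11 window, against a match in 59.9% of all windows. KLF4 and KLF6 each held 1 E box, a sequence found in 7.26% of windows. The CArG box, the motif of serum response factor, was found in 1.29% of windows and in none of the windows of the members, and AP-1 sites (TGANTCA, in 7.71% of windows) were likewise not found in them. These matches describe the letters of the windows and do not show binding.

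KLF4 (ENSG00000136826, chromosome 9 of GRCh37, 110247133 to 110252763), one of the reprogramming factors of pluripotency and a regulator of epithelial differentiation, was the member with the largest difference. It had 11.2, 11.6 and 12.5 normalized CPM in DMSO replicates 1, 2 and 3 and 39.3, 43.9 and 41.9 CPM in AZD7762 replicates 1, 2 and 3. Every AZD7762 library lay far above every DMSO library, and the spread within each group was small. The means were 11.8 ± 0.680 and 41.7 ± 2.30 CPM (SD, n = 3 in each group), a 3.55-fold higher level with AZD7762 (log2 fold change 1.83 ± 0.0800; values after ± are standard errors where they follow a log2 fold change). Of the exon length of KLF4, 9.75% overlaps ENSG00000289987, annotated on the opposite strand and not analysed here, and the counts of its annotated pseudogene KLF4P1 were 0 in every library.

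KLF6 (ENSG00000067082, chromosome 10, 3818188 to 3827473), a broadly expressed factor with tumour suppressor activity, changed the other way. It had 173, 180 and 166 CPM in the 3 DMSO libraries and 112, 130 and 116 CPM in the 3 AZD7762 libraries. The groups did not overlap, and AZD7762 replicate 2 was the library nearest to the DMSO group. The mean went from 173 ± 7.12 to 119 ± 9.41 CPM (SD, n = 3), which is 0.690 times the DMSO level (log2 fold change -0.54 ± 0.0676). No other annotated exon overlaps KLF6.

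Across the whole transcriptome, 125 of 17649 genes tested (0.708%) passed an adjusted p of 0.05 in edgeR's quasi-likelihood test, 63 higher with AZD7762 (0.357%) and 62 lower (0.351%). The split was 59 higher and 90 lower with library totals alone, and 98 higher and 144 lower with trends of GC content and length removed. Of the 10 members, 9 passed the filter on low counts and 2 were called, KLF4 higher and KLF6 lower, and since the members were chosen on this contrast the count is a description. By size, KLF4 ranked 14 of the 63 genes called higher and KLF6 ranked 33 of the 62 called lower. The 3 libraries of each group did not overlap for 3 of the 9 members (KLF3, KLF4 and KLF6), as for 15.0% of all genes tested. The median log2 fold change was -0.05 over the 9 members, 8 of which were below 0, and 0.0076 over all genes tested.

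**Figure D1:**
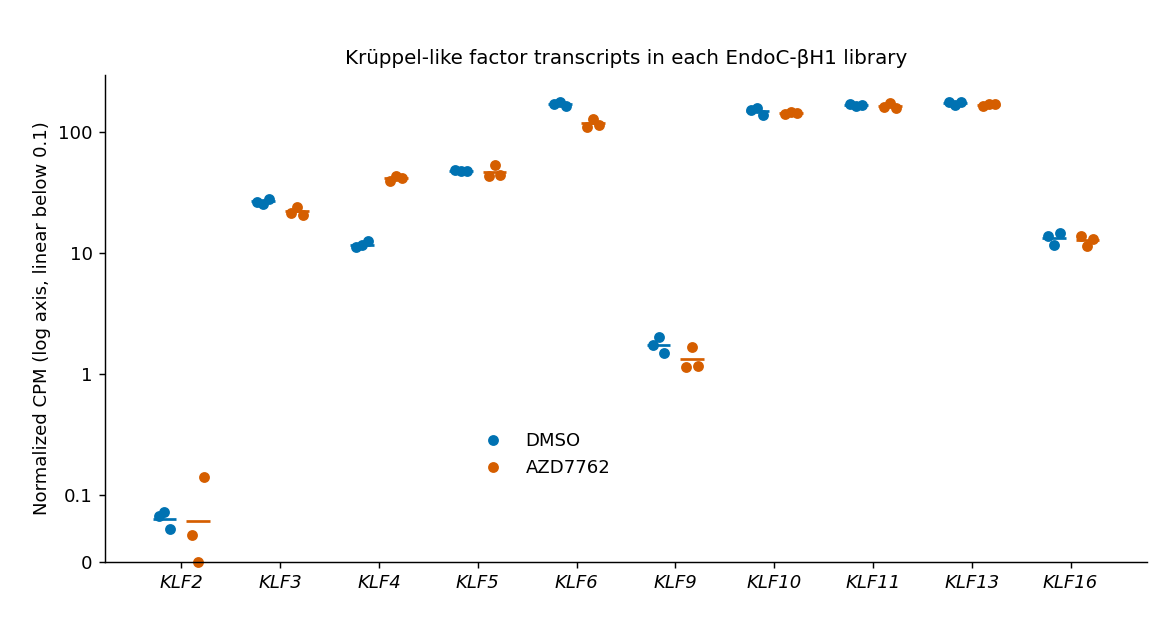
Normalized CPM of the 10 Krüppel-like factor genes in each library, on a log axis that is linear below 0.1 CPM, with 3 DMSO libraries in blue, 3 AZD7762 libraries in orange and a line at each group's mean. KLF4 lies between 11.2 and 12.5 CPM with DMSO and between 39.3 and 43.9 CPM with AZD7762, KLF6 is lower in all 3 AZD7762 libraries, and KLF2 stays at or below 0.141 CPM.

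Because both genes were counted in the same libraries, the ratio of their counts does not depend on scaling. There were 15.5, 15.5 and 13.2 KLF6 counts for each KLF4 count in the 3 DMSO libraries and 2.85, 2.96 and 2.77 in the 3 AZD7762 libraries. The 2 sets of ratios were widely separated, with means of 14.7 ± 1.30 and 2.86 ± 0.0947 (SD, n = 3). Per kilobase of exon, KLF6 went from 8.80 ± 0.776 to 1.71 ± 0.0565 times the level of KLF4, so KLF6 still had the higher level in every AZD7762 library. Relative to KLF10, KLF6 was also lower, from 1.15 ± 0.0347 to 0.819 ± 0.0445 counts for each KLF10 count. The ratio of KLF10 to KLF11, 2 related factors induced early by TGF-β, was 0.889 ± 0.0639 with DMSO and 0.880 ± 0.0282 with AZD7762, and these ranges overlapped.

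**Figure D2:**
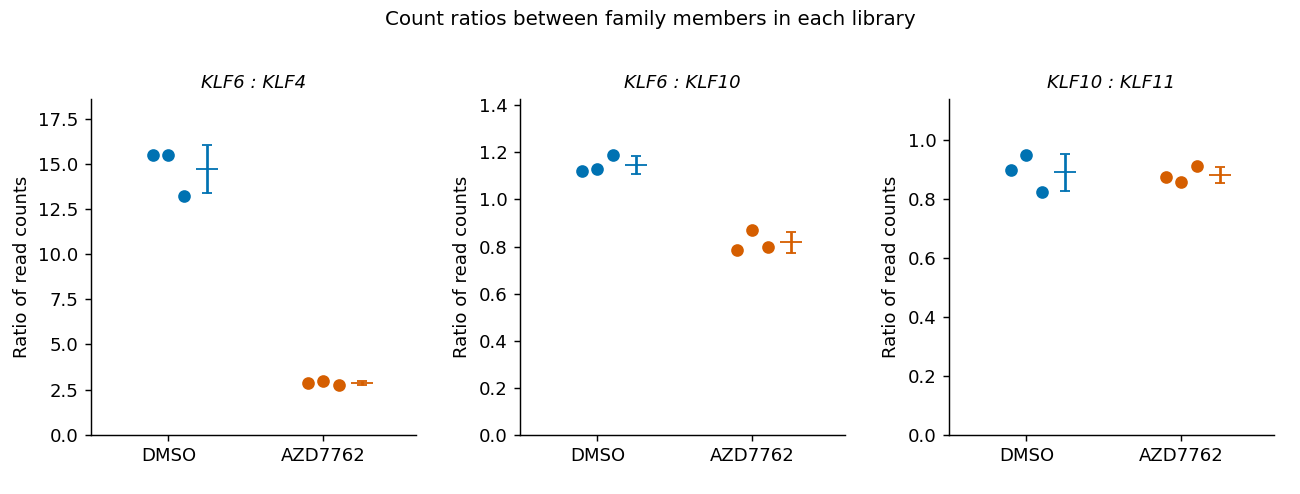
Ratios of read counts between pairs of KLF genes in each library (points), with the mean and SD of each group of 3 beside them, DMSO in blue and AZD7762 in orange. The KLF6 to KLF4 ratio goes from a mean of 14.7 to 2.86 and the KLF6 to KLF10 ratio from 1.15 to 0.819, while the KLF10 to KLF11 ratio overlaps between the groups.

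Among the other members that bind acetyltransferases, KLF5 (ENSG00000102554, chromosome 13, 73629114 to 73651679), which promotes proliferation of intestinal and other epithelia, had 48.6, 48.4 and 48.0 CPM with DMSO and 43.7, 54.0 and 44.1 CPM with AZD7762. The AZD7762 libraries lay on both sides of the DMSO libraries. The log2 fold change was -0.03 ± 0.0817, and it changed sign without AZD7762 replicate 1 (0.0131) or replicate 3 (0.0142). KLF2 (ENSG00000127528, chromosome 19, 16435637 to 16439496), a factor of endothelial and T cell quiescence, had 2, 2 and 1 counts with DMSO and 1, 0 and 3 counts with AZD7762. These counts are at or under the detection limit of 3 counts in every library, so no fold change is given for KLF2. Its annotated pseudogenes KLF2P2 and KLF2P4 had 20 to 38 and 7 to 16 counts, more than KLF2 itself, and reads that match both a gene and its copy make the KLF2 counts uncertain. In this group, therefore, KLF4 and KLF6 differed in direction, KLF5 did not separate the treatments and KLF2 was at or below the detection limit.

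KLF3 (ENSG00000109787, chromosome 4, 38665818 to 38703138), a CtBP-dependent repressor, had 26.7, 25.7 and 28.3 CPM with DMSO and 21.7, 24.2 and 20.7 CPM with AZD7762. All AZD7762 libraries were below all DMSO libraries, with a small gap between the nearest ones. The log2 fold change was -0.27 ± 0.0811, from a mean of 26.9 ± 1.29 to 22.2 ± 1.78 CPM (SD, n = 3), and KLF3 was not called over all genes. Of its exon length, 3.91% overlaps KLF3-AS1 on the opposite strand, which had at most 7 counts in any library.

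Of the 5 members that bind SIN3A, 4 had log2 fold changes between -0.05 and -0.03, and only KLF9 lay outside this range. KLF10 (ENSG00000155090, chromosome 8, 103661012 to 103667953), an early target of TGF-β, had 154, 159 and 139 CPM with DMSO and 142, 149 and 145 CPM with AZD7762, which gave a log2 fold change of -0.05 ± 0.0629. KLF11 (ENSG00000172059, chromosome 2, 10182976 to 10194963), which is reported to act on the insulin and PDX1 genes, had 172, 167 and 170 CPM with DMSO and 163, 174 and 159 CPM with AZD7762, which gave a log2 fold change of -0.03 ± 0.0577. For both genes the libraries of the groups overlapped, and ENSG00000271787, antisense to 9.06% of the KLF11 exons, had at most 6 counts. KLF13 (ENSG00000169926, chromosome 15, 31619038 to 31727868), known as a regulator of CCL5 in T cells, had 179, 170 and 180 CPM with DMSO and 167, 171 and 173 CPM with AZD7762, which gave a log2 fold change of -0.05 ± 0.0553. KLF16 (ENSG00000129911, chromosome 19, 1852398 to 1863578), a factor described on dopamine receptor promoters, was less abundant, with 13.8, 11.7 and 14.6 CPM with DMSO and 14.0, 11.5 and 13.2 CPM with AZD7762, which gave a log2 fold change of -0.05 ± 0.109. The sign for KLF16 changed without DMSO replicate 3 (0.0158) or AZD7762 replicate 2 (0.0183), and the gene ENSG00000267125, which lies antisense to 16.3% of its exons, had 0 counts in every library.

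KLF9 (ENSG00000119138, chromosome 9, 72999520 to 73029573), which is induced by glucocorticoid and thyroid hormones, was the member with the lowest level that could be tested. It had 1.73, 2.02 and 1.49 CPM with DMSO and 1.15, 1.66 and 1.17 CPM with AZD7762, which rested on between 25 and 55 counts in each library. The groups overlapped through AZD7762 replicate 2, and the log2 fold change of -0.41 had a standard error of 0.217, the largest among the members.

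Levels were compared between genes per kilobase of exon. With DMSO, KLF10 (39.5 ± 2.63 CPM per kb, SD, n = 3) and KLF11 (36.9 ± 0.542) were highest and their libraries overlapped. They were followed by KLF6 at 28.2 ± 1.16, KLF13 at 18.7 ± 0.552 and KLF5 at 13.1 ± 0.0788 CPM per kb, which did not overlap with their neighbours in this order. KLF16 (4.52 ± 0.503) and KLF3 (3.97 ± 0.191) overlapped, and KLF4 at 3.21 ± 0.186 CPM per kb was in place 10 among the 18 KLF genes. KLF9 stood at 0.336 ± 0.0517, overlapping with KLF8, and KLF2 at 0.0224 ± 0.00476 CPM per kb. The gap below KLF10 and KLF11 depends on the length used. Per kb of the longest transcript, KLF6 had 37.7 ± 1.55, KLF10 41.2 ± 2.74 and KLF11 42 ± 0.617 CPM with DMSO (SD, n = 3).

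With AZD7762, KLF4 reached 11.4 ± 0.628 CPM per kb of exon and place 6, where its highest library lay above the lowest KLF5 library (11.9). The order with AZD7762 was not computed with the length of the longest transcript, so this place holds for the union of exons only. KLF6 remained in place 3 at 19.5 ± 1.53 CPM per kb, between KLF11 at 36.1 ± 1.71 and KLF13 at 18.1 ± 0.329, and its lowest library (18.3) overlapped with the highest KLF13 library (18.4). KLF4 made up 2.17 ± 0.165% of the summed level per kb of the 10 members with DMSO and 7.91 ± 0.205% with AZD7762, and KLF6 made up 19.0 ± 0.525% and 13.5 ± 0.485%. The summed level itself was 148 ± 2.72 CPM per kb with DMSO and 144 ± 6.14 CPM per kb with AZD7762, with overlapping libraries.

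**Figure D3:**
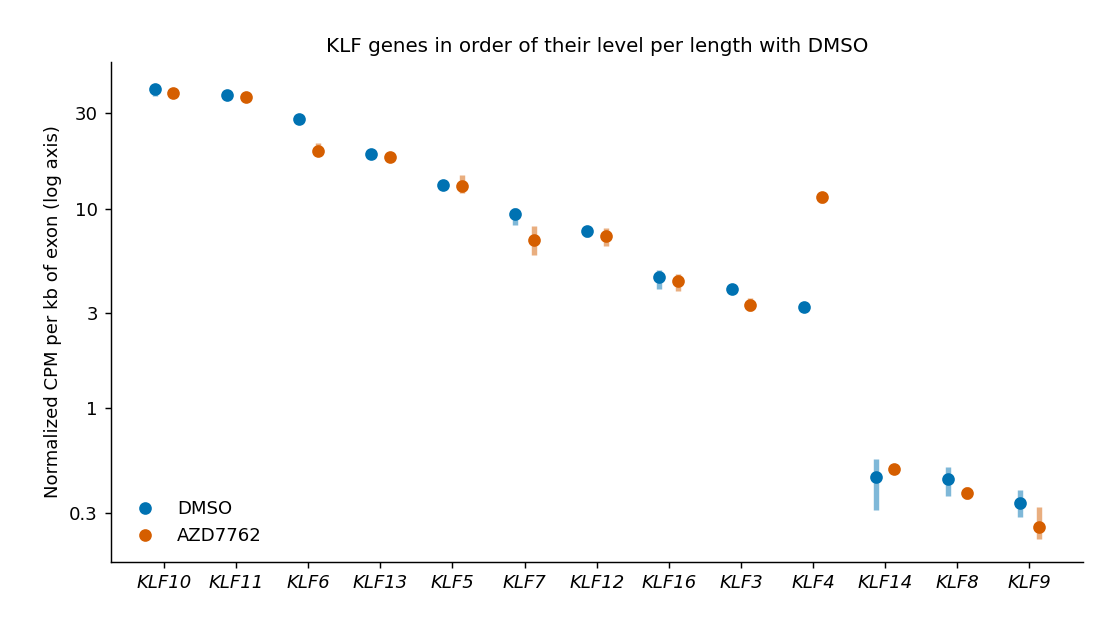
Normalized CPM per kilobase of exon on a log axis for the 13 KLF genes that passed the filter on low counts, in the order of their DMSO mean, with the mean (point) and the range of 3 libraries (bar) for DMSO in blue and AZD7762 in orange. KLF4 moves from place 10 to place 6, at 11.4 CPM per kb, and KLF6 comes down to 19.5 CPM per kb.

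The rest of the family and the related SP factors were tested in the same fit. Of these 17 genes, 11 passed the filter on low counts. In edgeR's test 0 of them were called over all genes, against 0.708% of all genes tested. KLF7 and SP8 were the 2 with an unadjusted p under 0.05, against 1708 of all 17649 genes tested. KLF7 was called by DESeq2's Wald test (adjusted p = 0.0160). KLF7 (ENSG00000118263), an acetyltransferase-binding factor of neuronal development, had 94.1, 79.2 and 97.4 CPM with DMSO and 56.3, 78.4 and 66.7 CPM with AZD7762, and the groups did not overlap although DMSO replicate 2 and AZD7762 replicate 2 were close. Its log2 fold change was -0.43 ± 0.109 (edgeR, adjusted p = 0.141), and without AZD7762 replicate 2 it was called (-0.56, adjusted p = 0.0342, edgeR). Over all 14 alternatives, the highest adjusted p was 0.606 (edgeR, without AZD7762 replicate 1). The lowest, 1.81e-06, came only from edgeR without a filter on low counts, and the next lowest was the 0.0160 of DESeq2. SP8 went from 1.65 ± 0.0710 to 2.29 ± 0.449 CPM (SD, n = 3, log2 fold change 0.47 ± 0.189, adjusted p = 0.442, edgeR).

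The abundant SP factors, which bind the same GC boxes, were SP1 with 177 ± 0.493 and 176 ± 12.6 CPM and SP3 with 195 ± 4.46 and 189 ± 8.96 CPM (SD, n = 3), with log2 fold changes of -0.02 ± 0.0630 and -0.05 ± 0.0583. SP2 and SP4 had log2 fold changes of 0.065 and 0.0157. KLF12 had a log2 fold change of -0.10 ± 0.0776 and KLF8 of -0.23 ± 0.142, so the values of both other CtBP-binding genes were below 0 without passing the test. KLF14, SP5 and SP6 had means at or below 1.71 CPM and log2 fold changes of 0.14, -0.24 and -0.58. KLF1, KLF15 and SP7 did not pass the filter on low counts, and KLF17, KLF18 and SP9 had 0 counts in every library.

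**Figure D4:**
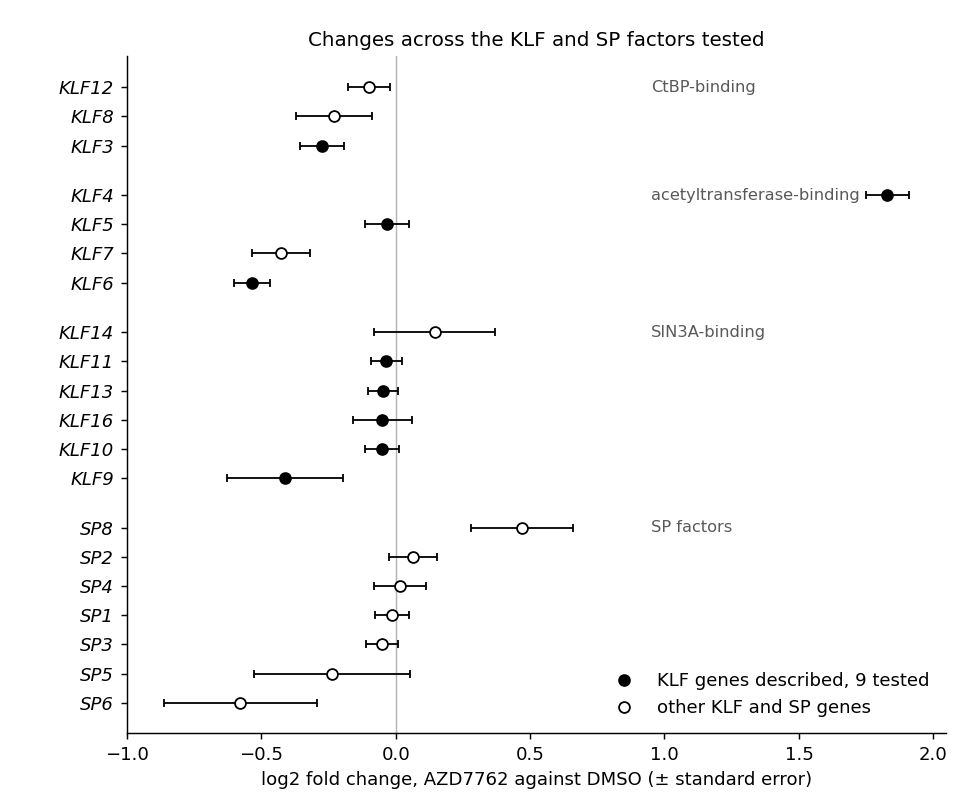
Log2 fold change of AZD7762 against DMSO with its standard error for the 20 KLF and SP genes that passed the filter on low counts, grouped by the partner that the KLF proteins bind, with the KLF genes described in filled symbols and the other KLF and SP genes in open symbols. KLF4 stands at 1.83 and KLF6 at -0.54 within the acetyltransferase-binding group, and 4 of the SIN3A-binding genes lie between -0.05 and -0.03.

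Genes known to regulate transcription of KLF genes were examined as a list. This list, like those of cofactors and targets below, was chosen with earlier results of these data known. Counts of called genes in it are therefore a description. Of 13 listed genes, 12 were tested and 1 was called (1 higher, 0 lower), against 0.708% of all genes tested. The median log2 fold change was -0.0031 over the list. The gene called was SRF, which encodes the serum response factor that activates many immediate early genes. SRF (ENSG00000112658, chromosome 6, 43139007 to 43149244) had 55.6, 41.6 and 65.1 CPM with DMSO and 91.7, 118 and 112 CPM with AZD7762. All AZD7762 libraries were above all DMSO libraries, and the log2 fold change was 0.99 ± 0.135 (edgeR, adjusted p = 0.00233). The MEK5-ERK5-MEF2 genes, which are known to activate KLF2 and KLF4, were MAP2K5, MAPK7, MEF2A and MEF2D with log2 fold changes of -0.04, 0.04, -0.03 and 0.20, none of them called, while MEF2C did not pass the filter on low counts. For the TGF-β receptor and SMAD genes, the glucocorticoid receptor gene NR3C1 and the glucose-responsive factor gene MLXIPL, log2 fold changes lay between -0.14 and 0.0366, and 0 were called.

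Cofactors and ubiquitin ligases of KLF proteins had 12 of 12 genes tested and 0 called in edgeR's test, against 0.708% of all genes tested. In a list of this size, 0 called is near that share. FBXW7 (log2 fold change -0.21) was the 1 gene at an unadjusted p under 0.05, against 1708 of all 17649 genes tested. DESeq2 called 0, and the median log2 fold change was 0.0369. The 3 with the highest CPM, not corrected for length, were HDAC2, HDAC1 and SIN3A, parts of the corepressor complex bound by the KLF10 and KLF11 group, with log2 fold changes of 0.0253, 0.0016 and 0.0638. Among 15 genes reported elsewhere as regulated by KLF factors, 10 were tested and 0 were called, again near the 0.708% of all genes tested. SMAD7 and PDGFA were the 2 at an unadjusted p under 0.05, against the same 1708 of 17649 genes, and DESeq2 called 0. The 3 with the highest CPM, again not corrected for length, were INS, PDX1 and MAOA, with log2 fold changes of 0.16, 0.09 and 0.0373. INS varied widely, at 1100, 1020 and 1660 CPM with DMSO and 1480, 1130 and 1620 CPM with AZD7762. Of its exon length, 37.5% overlaps INS-IGF2 on the same strand, which makes its counts uncertain. SMAD7, an inhibitor of TGF-β signalling that is named after its values were seen, had 5.08, 4.41 and 4.74 CPM with DMSO and 3.06, 2.57 and 3.33 CPM with AZD7762, so that the groups did not overlap, with a log2 fold change of -0.67 ± 0.142 (edgeR, adjusted p = 0.0626). CDKN1A, a cell cycle inhibitor that KLF4 and KLF6 are known to activate, went from 25.2 ± 1.21 to 23.2 ± 1.57 CPM (SD, n = 3), with a log2 fold change of -0.12 ± 0.0793 (edgeR, adjusted p = 0.685).

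Genes whose pattern over the 6 libraries was most like that of KLF4 and KLF6 were read from Pearson's r of log2 CPM among 13862 genes outside the KLF and SP families whose mean log2 CPM reached 1, as a description in which the 2 treatments form 2 clusters of points. For KLF4 these were SAFB, KCNE4 and NR4A2, with r of 0.9995, 0.9994 and 0.9989 and log2 fold changes of 0.13, 4.60 and 3.93. For KLF6 they were TCFL5, B3GNT5 and CUL5, with r of 0.9954, 0.9952 and 0.9922 and log2 fold changes of -0.13, -0.25 and -0.23. The log2 fold changes of these 3 genes were smaller in size than that of KLF6 itself.

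GC content moved with the treatment across all genes, with a median log2 fold change of -0.034 in the tenth of genes lowest in GC content and 0.0856 in the tenth that was highest. KLF4 and KLF6 have a GC content of 55.9% and 45.7%. With trends of GC content and length taken out of each library, their log2 fold changes were 1.78 and -0.52, that of KLF13 moved from -0.05 to -0.0867 and that of KLF16, with 67.8% GC, from -0.05 to -0.17.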

How the data were processed

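Poly(A) RNA libraries, made with a stranded or an unstranded TruSeq kit that is not stated per sample, were sequenced with paired ends of 51 bp. Per the labels and the methods of the study, the authors checked reads with FastQC 0.10.1, trimmed them with cutadapt 1.18 and aligned them to GRCh37, and HTSeq-count gave the counts of each gene. The aligner, the annotation release and the strand setting are not given in the sources used here, so overlaps on either strand are reported. The deposited values are raw counts, 1 file per sample, with no scaling or filter. They were used as deposited.

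Samples were grouped by the treatment in their labels. Symbols, positions on GRCh37 and exon lengths came from GENCODE 44 lifted to GRCh37, which matched 58646 of 60671 identifiers (96.7%). In R 4.3.3, genes were filtered with filterByExpr, scaled by TMM and tested with the quasi-likelihood test of edgeR 4.0.16 with treatment as the term and Benjamini-Hochberg adjustment over 17649 genes, two-sided, at 0.05. Standard errors were derived from the log2 fold change and its F statistic (absolute value over root F). Normalized CPM are counts per 1000000 of the TMM-scaled total over the genes that passed the filter. Levels per kb divide them by the union of exons. A count of 3 was the detection limit, which covers counting error only. The procedure was tested on simulated counts. Alternatives were other scalings and filters, DESeq2 1.42.0, the replicate number as a term, removal of GC content and length trends, and each library left out. The members and the gene lists were chosen with earlier results of these data known. Named genes are the members, the other KLF and SP genes, called genes of the lists or otherwise the 3 with the highest mean CPM, and the 3 genes most like KLF4 and KLF6, with further genes of the lists given by their values. SMAD7, FBXW7, PDGFA, CDKN1A and CCND1 were added after their values were seen.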

Additional observations from a re-analysis of the deposited data

How the results depend on the processing

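KLF4 and KLF6 were called, in the same directions, under all 14 alternatives, with log2 fold changes between 1.78 and 1.87 for KLF4 and between -0.61 and -0.50 for KLF6, and 2 members were called under each of them. All 14 reuse the libraries on which the members were chosen, so these calls are a description and no further test. KLF3, KLF9, KLF10, KLF11 and KLF13 stayed below 0 under all 14 without being called. Against 125 genes called over all genes, there were 330 without a filter on low counts, 378 with the replicate block, 242 after removing trends of GC content and length, 465 with both of these last, and between 77 (without AZD7762 replicate 1) and 168 (without DMSO replicate 3) with 1 library left out. The cause was not tested. The share called higher was 50.4%, 39.6% with library totals alone, 40.5% after removing trends of GC content and length, and 59.4%, 64.3% and 63.6% without DMSO replicate 1, DMSO replicate 3 and AZD7762 replicate 1. Of the other KLF and SP genes, against 0 called, 1, KLF7, was called without a filter on low counts, with DESeq2, with the replicate block, with the block and these trends removed, and without AZD7762 replicate 2, so the range with 1 library left out was 0 to 1. Of the listed cofactors, regulators and targets, 1 was called (SRF, under all 14 alternatives), and 2, with SMAD7, with library totals alone, without a filter, with the replicate block or after removing trends of GC content and length, and 3, with PDGFA, when the last 2 were combined. Same-numbered samples of the groups deviated together with r of 0.0533, 0.124 and 0.210. For DMSO replicates 2 and 3 the same-numbered AZD7762 library had the highest r, whereas DMSO replicate 1 correlated best with AZD7762 replicate 2 (0.175). These values do not settle whether the numbers mark pairs, and the main test did not use the numbers. With the length of the longest transcript, 6 of the 18 KLF genes changed place in the order of levels with DMSO, KLF10 and KLF11 among them. The order with AZD7762 was not computed with this length. Depth limits KLF2, at or under 3 counts in each library.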

Other observations

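In the AZD7762 group, replicate 2 had the highest normalized CPM for 7 of the 9 members tested (KLF3, KLF4, KLF5, KLF6, KLF9, KLF10 and KLF11), and it was the highest library of its group for 33.2% of all genes tested. In the DMSO group, replicates 1, 2 and 3 were highest for 2, 3 and 4 of the 9 members. KLF5 had the smallest spread of the members with DMSO, a coefficient of variation of 0.600%, and 12.4% with AZD7762, where replicate 2 stood apart at 54.0 CPM. For the 9 members, the coefficient of variation otherwise reached 15.4% with DMSO and 21.7% with AZD7762, both for KLF9, against a median of 7.89% over all genes tested (mean of both groups).

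The cyclin gene CCND1, a gene that KLF4 is known to repress and KLF5 to activate, had 1, 1 and 2 counts with DMSO and 5, 3 and 3 with AZD7762. It did not pass the filter on low counts and lies at or under the detection limit of 3 counts in 5 of 6 libraries, so no fold change is given. KLF7P1, an annotated pseudogene of KLF7, had between 31 and 66 counts in each library, against at least 1417 for KLF7.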
